A study of Mus musculus with 9 samples.

Results

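The transcripts described here encode 9 carrier and binding proteins that the liver secretes into blood plasma, namely Alb, Ttr, Rbp4, Gc, Ahsg, Fetub, Serpina6, Azgp1 and Ambp, which were taken by gene name from the 56748 genes of the deposited count table. Liver RNA of 9 mice was sequenced, one library per mouse, with 3 libraries in each of 3 groups named Control, DSS and Indirubin. All mice were C57BL/6J (C57BL/6 in the sample labels), bought at 7 to 8 weeks of age, and all received 200 µL of liquid by mouth every day. The DSS mice drank dextran sulfate sodium, which injures the colonic epithelium, at 1.8% (w/v) in 3 cycles of 1 week, each followed by 1 week without it, and were given water by mouth. The Indirubin mice had the same DSS cycles and were given indirubin, a poorly soluble indigo-plant compound and a ligand of the aryl hydrocarbon receptor (AhR), at 1 g/kg/day. The Control mice are labelled with water as their treatment, whereas the deposited design text describes colitis before it describes the split into groups, so whether Control livers came from mice without colitis cannot be read from the labels alone. A difference between Indirubin and DSS therefore bears on indirubin in mice with colitis, while what a difference between DSS and Control bears on depends on that state of the Control mice.

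Hepatocytes make most plasma proteins. In the acute-phase response, inflammatory cytokines turn hepatocytes toward proteins such as serum amyloid A and haptoglobin, whereas albumin, transthyretin and retinol-binding protein are known as negative acute-phase proteins because their plasma levels fall during inflammation. Most of these carriers depend on hepatocyte transcription factors of the HNF1, HNF4, FOXA and C/EBP families.

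Each member was placed on the GRCm39 build by the deposited table, all as protein-coding genes. Alb (ENSMUSG00000029368, chr5:90608756-90624461, + strand) and Gc (ENSMUSG00000035540, chr5:89565381-89605757, - strand) lie on the same chromosome and belong to one protein family. Ahsg (ENSMUSG00000022868, chr16:22710027-22718199, + strand) and Fetub (ENSMUSG00000022871, chr16:22737084-22758528, + strand) are neighbouring fetuin genes. Rbp4 (ENSMUSG00000024990) is at chr19:38105077-38113729 on the - strand, and its plasma partner Ttr (ENSMUSG00000061808) at chr18:20798337-20807378 on the + strand. Serpina6 (ENSMUSG00000060807) is at chr12:103612889-103623471 on the - strand, Azgp1 (ENSMUSG00000037053) at chr5:137979782-137988495 on the + strand, and Ambp (ENSMUSG00000028356) at chr4:63061512-63073036 on the - strand.

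The RefSeq promoter table, which is on another build (GRCm38.p6), held 9 windows of 300 bases, running from 250 bases before to 50 after a transcript start, for 7 of the 9 members, and none for Ttr and Serpina6. The windows of Alb, Gc, Ahsg, Ambp and the GC-rich Rbp4 window are shown, and matches in the other windows are described below them. They are written 5′ to 3′ on the strand of the gene, with capitals marking each exact match, on either strand, to 8 short motifs of factors known in liver.

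Alb, chr5:90460620-90460919 (+): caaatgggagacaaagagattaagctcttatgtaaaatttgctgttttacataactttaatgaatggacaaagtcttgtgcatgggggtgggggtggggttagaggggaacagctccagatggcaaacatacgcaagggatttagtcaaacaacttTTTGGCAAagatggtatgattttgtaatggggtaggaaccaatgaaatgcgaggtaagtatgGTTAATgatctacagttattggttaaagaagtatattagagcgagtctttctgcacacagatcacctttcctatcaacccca

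Gc, chr5:89457849-89458148 (-): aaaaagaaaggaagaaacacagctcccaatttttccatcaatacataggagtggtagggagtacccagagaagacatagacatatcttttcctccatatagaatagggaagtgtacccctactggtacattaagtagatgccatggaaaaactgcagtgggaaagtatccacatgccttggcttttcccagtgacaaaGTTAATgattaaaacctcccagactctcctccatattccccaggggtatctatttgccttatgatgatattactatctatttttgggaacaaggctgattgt

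Ahsg, chr16:22891765-22892064 (+): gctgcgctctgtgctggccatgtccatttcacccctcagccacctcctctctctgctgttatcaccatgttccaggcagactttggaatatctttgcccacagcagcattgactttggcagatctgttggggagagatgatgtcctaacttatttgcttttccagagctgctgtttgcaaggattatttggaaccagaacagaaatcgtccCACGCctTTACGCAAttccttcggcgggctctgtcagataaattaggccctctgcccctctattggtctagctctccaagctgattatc

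Rbp4, chr19:38124762-38125061 (-): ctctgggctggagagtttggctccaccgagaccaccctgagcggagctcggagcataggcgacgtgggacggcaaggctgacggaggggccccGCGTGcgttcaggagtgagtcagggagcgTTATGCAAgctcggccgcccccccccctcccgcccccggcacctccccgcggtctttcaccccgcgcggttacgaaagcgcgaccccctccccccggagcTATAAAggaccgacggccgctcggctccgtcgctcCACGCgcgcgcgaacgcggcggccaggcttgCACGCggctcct

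Ambp, chr4:63154123-63154422 (-): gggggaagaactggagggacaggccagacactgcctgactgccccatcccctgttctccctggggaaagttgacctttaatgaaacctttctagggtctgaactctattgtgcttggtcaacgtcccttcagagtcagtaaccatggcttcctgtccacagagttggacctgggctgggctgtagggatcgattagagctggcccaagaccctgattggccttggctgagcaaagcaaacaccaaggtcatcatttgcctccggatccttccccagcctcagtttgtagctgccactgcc

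The HNF1 half-site GTTAAT, found in 7.1% of all 32851 promoter windows of this length, began 32 bases before the start of Alb and 52 bases before that of Gc. The C/EBP motif TTGCNNAA, present in 10.8% of windows, was found in Alb, Ahsg and Rbp4, and began 32 bases before the start in Ahsg. The AhR core GCGTG, present in 32.4% of windows, matched once in the Ahsg window, 3 times in the Rbp4 window shown and 2 times in the second of the 2 Fetub windows. TATAAA (13.6% of windows) was present in that Rbp4 window and in the first Fetub window, and the FOXA form TGTTTAC (3.65%) in the second Fetub window and the other Rbp4 window. None of the 9 windows held the HNF4 core AAAGTCCA (1.25%), the second FOXA form TATTTAC (3.04%) or the STAT motif TTCNNNGAA (8.3%), and the Ambp and Azgp1 windows held no match to any of the 8. No 2 matches overlapped. A match describes letters and does not show that a factor binds there.

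Libraries held 6514863 to 7944684 counts, of which 71.6% to 91.3% lay on the mitochondrial genome, leaving 569044 to 2132208 counts on nuclear genes. The mitochondrial share was 72.4% in DSS-3, 71.6% in Indirubin-2 and 77.2% in Indirubin-3, and 85.8% to 91.3% in the other 6 libraries. Its part in the values of those 3 libraries was not tested. Values below are normalized CPM, the usual depth-scaled counts (CPM) with library sizes adjusted by edgeR's TMM method over all 9 libraries. All 12 hepatocyte markers were above 3 counts in every library, at a summed 3364 to 5015 normalized CPM in Control, 2296 to 4842 in DSS and 2186 to 2525 in Indirubin. The library labelled Indirubin-1 stood apart from the other 2 of its group. Saa1, a serum amyloid A gene, had 53 counts there against 22582 and 29263 in Indirubin-2 and Indirubin-3, and 12 to 55 in Control. The 12 pancreatic acinar markers, genes of the exocrine pancreas, summed to 17671 counts in Indirubin-2 and 16674 in Indirubin-3, with none at or below 3 counts, against 0 to 88 in the other 7 libraries. The 10 neutrophil markers summed to 251 and 89.7 normalized CPM in Indirubin-2 and Indirubin-3, 26.1 in Indirubin-1, 11.5 to 19.8 in DSS and 1.17 to 3.65 in Control, with Cxcr2 at 0 counts in all 9 libraries. The part of pancreatic or neutrophil RNA in the results below was not tested. In bulk liver, fewer cells of a type and less RNA per cell cannot be told apart.

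The 9 transcripts together took 7.36% to 10.5% of nuclear counts in Control, 6.83% to 9.77% in DSS and 4.45% to 8.04% in Indirubin. Indirubin-2 (4.45%) and Indirubin-3 (5.57%) had the smallest shares of all 9 libraries. Alb alone supplied 58.0% to 75.5% of the members' counts. The 25 positive acute-phase genes took 2.24% to 3.14% in Control, 5.53%, 12.9% and 14.7% in DSS-1, DSS-2 and DSS-3, and 2.72%, 10.5% and 16.8% in Indirubin-1, Indirubin-2 and Indirubin-3. In the bar plot of shares, the acute-phase genes outweighed the transport proteins in DSS-2, DSS-3, Indirubin-2 and Indirubin-3.

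**Figure D1:**
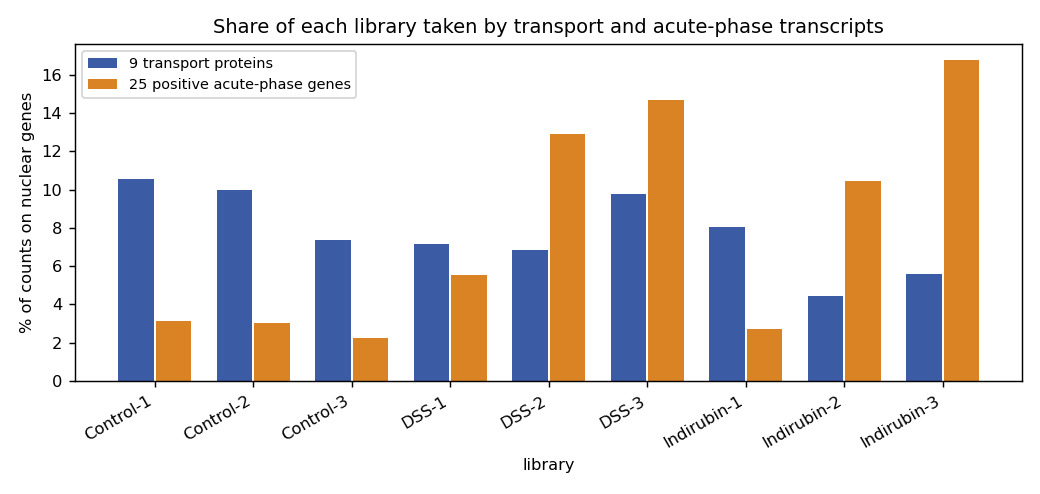
Percentage of counts on nuclear genes (y axis) taken in each library (x axis) by the 9 transport protein transcripts (blue) and by the 25 positive acute-phase genes (orange). The transport proteins take 4.45% to 10.5%, and the acute-phase genes 2.24% to 16.8%, with Indirubin-1 at 2.72% for the latter.

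Levels of different genes were compared per length, as normalized CPM per kilobase of the gene length in the table. Alb, the main protein of plasma and a carrier of fatty acids and drugs, led in every group, with 4599 ± 1219 in Control, 3404 ± 1390 in DSS and 2561 ± 702 in Indirubin (mean ± SD, n = 3). It did not overlap the next gene in any group. On the same per-length scale Serpina6 was last in every group, at 13.1 ± 4.85, 10.8 ± 5.16 and 2.75 ± 4.30 (SD, n = 3), and did not overlap Fetub, the gene above it. Between them the order in Control was Ttr, Gc, Ahsg, Ambp, Rbp4, Azgp1 and Fetub, in which the first 5 each overlapped the next among them while Rbp4, Azgp1 and Fetub did not overlap one another. Ambp was at rank 5 in Control at 326 ± 111, rank 2 in DSS at 821 ± 604 and rank 4 in Indirubin at 305 ± 106 normalized CPM per kilobase. Ttr was at rank 2 in Control at 716 ± 209, rank 3 in DSS at 595 ± 180 and rank 5 in Indirubin at 237 ± 146. Ambp and Ttr overlapped their neighbours in the order in all 3 groups, apart from Ttr and Alb in Control and Ambp and Alb in DSS.

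**Figure D2:**
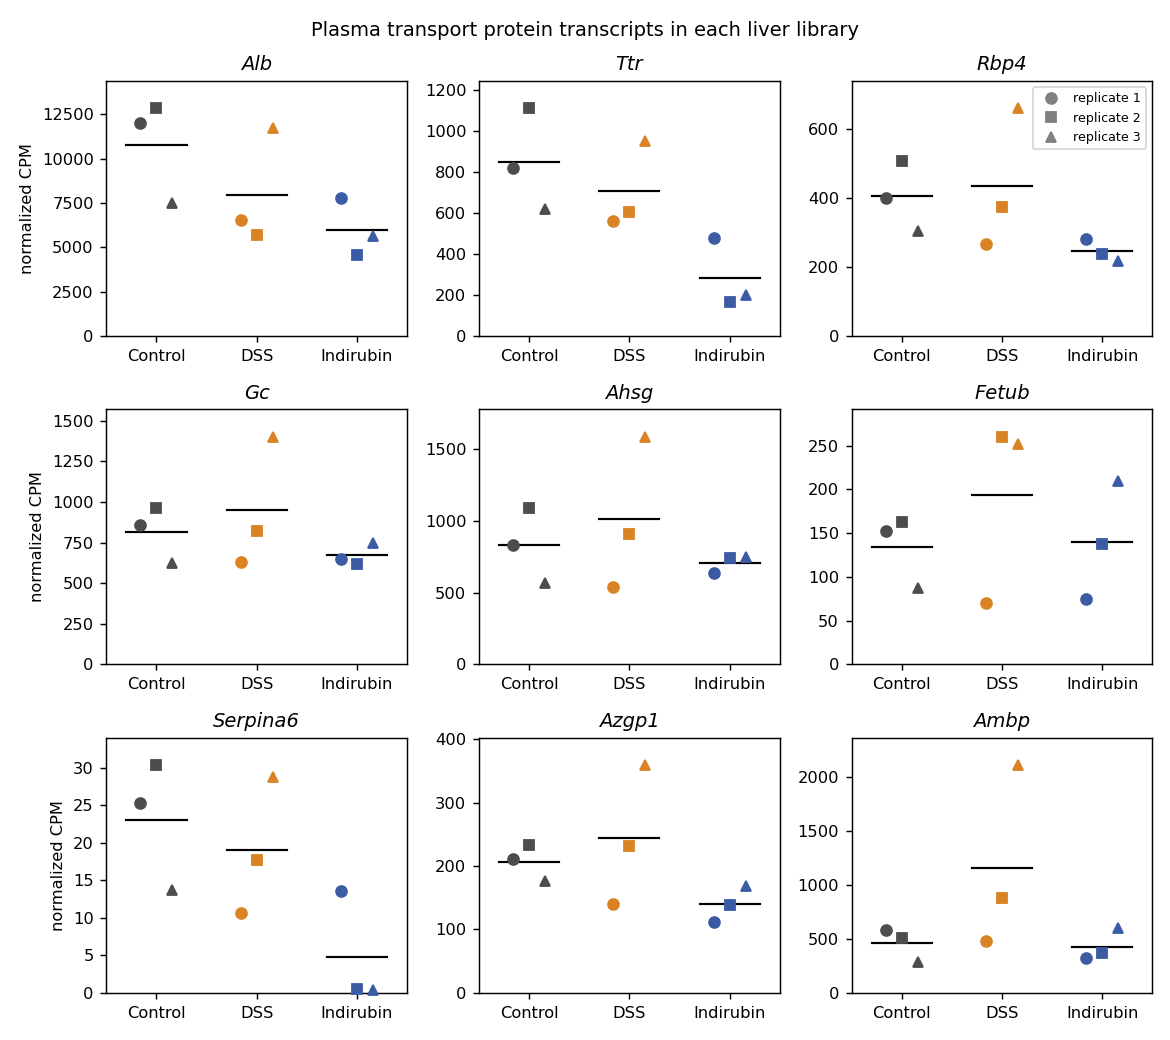
Normalized CPM (y axis, linear from 0, its own range in each panel) of each transcript in the 9 libraries, grouped as Control, DSS and Indirubin on the x axis, with symbols for the replicate number and a bar at the group mean. Ttr sits below both other groups in Indirubin, Serpina6 is near 0 in Indirubin-2 and Indirubin-3 only, and DSS-3 is the highest library for Rbp4, Gc, Ahsg, Azgp1 and Ambp.

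All 9 members passed the filter on low counts in each comparison. The first comparison asked what indirubin added to DSS. Of the 9 members, 9 had a fitted log2 fold change below 0 in Indirubin against DSS, where 43.2% of the 9117 genes tested did, and their median was -0.80 against 0.15 over all genes. Without DSS-3 these medians were -0.39 and 0.25. In edgeR's quasi-likelihood test none passed an adjusted p of 0.05 (Benjamini-Hochberg), and neither did any other gene (0% of genes tested). Before adjustment, 406 genes were higher and 294 lower with p below 0.05, and DESeq2's Wald test called 80 genes and no member. Ttr and Ambp were the 2 members with an unadjusted p under 0.05, where 3.22% of all genes tested were lower with such a p. One member, Ttr, had every Indirubin library below every DSS library, as did 5.92% of genes. In the same comparison 16 of the 25 positive acute-phase genes were also below 0 and 9 above, with a median of -0.25 and none called.

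Ttr encodes transthyretin, which carries thyroxine and, through retinol-binding protein, vitamin A. Its normalized CPM was 818, 1110 and 618 in Control, 559, 605 and 951 in DSS, and 480, 164 and 199 in Indirubin. Indirubin-2 and Indirubin-3 were low, and Indirubin-1 lay between them and the lowest DSS library, so the Indirubin group overlapped neither other group. The log2 fold change was -1.32 ± 0.53 (SE) against DSS, with an adjusted p of 0.582 by edgeR's quasi-likelihood test, and -2.06 with an adjusted p of 0.0529 in that test without Indirubin-1. Against the same Indirubin libraries, the comparison with Control gave -1.57 ± 0.49 with an adjusted p of 0.175 in that test, and -2.33 with an adjusted p of 0.00220 without Indirubin-1. Leaving out Indirubin-1 raised the genes called in all from 0 to 134 of 10817 against DSS, and from 19 to 465 of 9721 against Control.

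Rbp4, the retinol-binding protein that circulates bound to transthyretin, had 401, 507 and 306 normalized CPM in Control, 268, 373 and 660 in DSS, and 280, 239 and 217 in Indirubin. All 3 Indirubin libraries were below every Control library, and DSS-1 lay between Indirubin-1 and Indirubin-2. The log2 fold change was -0.82 ± 0.46 against DSS and -0.69 ± 0.38 against Control, neither past the threshold of edgeR's quasi-likelihood test (adjusted p of 0.767 and 0.458), and the log2 fold change against DSS was -0.39 without DSS-3 and -1.17 without DSS-1. Per Rbp4 count there were 2.02 to 2.19 Ttr counts in Control, 2.09, 1.62 and 1.44 in DSS, and 1.71, 0.686 and 0.919 in Indirubin. In Indirubin-2 and Indirubin-3, Ttr had fewer counts than Rbp4, which no other library showed, and this ratio within a library does not depend on scaling.

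Serpina6 encodes corticosteroid-binding globulin, the carrier of glucocorticoids in blood. It had 130, 172 and 56 counts in Control, 90, 100 and 314 in DSS, and 74, 7 and 4 in Indirubin, or 25.3, 30.3 and 13.6, then 10.7, 17.7 and 28.7, then 13.6, 0.574 and 0.346 normalized CPM. Indirubin-1 was within the DSS range and just under Control-3, and the other 2 Indirubin libraries were far below every library of the series. The log2 fold change was -2.05 ± 1.02 against DSS (adjusted p of 0.702) and -2.34 ± 0.99 against Control (adjusted p of 0.314) in edgeR's quasi-likelihood test. Without Indirubin-1 these became -5.43 with an adjusted p of 0.00174 and -5.70 with an adjusted p of 0.000220. The fits without that library called 134 of 10817 genes against DSS and 465 of 9721 against Control. With no filter on low counts, which puts more genes in the fit, Serpina6 passed edgeR's test with all libraries in (adjusted p of 0.0278 against DSS and 0.00122 against Control). Those unfiltered fits called 156 of 23034 genes against DSS and 379 of 22767 against Control. The call on Serpina6 thus rested on Indirubin-1 and on the filter. Indirubin-2 and Indirubin-3 held only 7 and 4 counts, and the part of such low counts in its precision was not tested.

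Ambp encodes alpha-1-microglobulin and bikunin in one precursor, the latter being the light chain of the inter-alpha-trypsin inhibitors. Its normalized CPM was 586, 507 and 285 in Control, 480, 879 and 2111 in DSS, and 321, 368 and 601 in Indirubin. DSS-3 was the highest by far, DSS-1 lay inside the Control range, and the groups overlapped. The log2 fold change of Indirubin against DSS was -1.43 ± 0.59 with an adjusted p of 0.604 in edgeR's quasi-likelihood test, and -0.67 without DSS-3. Of its heavy chains, which are not among the 9, Itih1 and Itih2 had log2 fold changes of -0.84 ± 0.40 and -0.72 ± 0.40 in the same comparison (adjusted p of 0.679 and 0.757), with no overlap between groups, whereas Itih3 overlapped, at 183, 373 and 540 normalized CPM in DSS and 94.9, 358 and 476 in Indirubin.

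The other 5 members had smaller differences between Indirubin and DSS. Alb had 11976, 12827 and 7514 normalized CPM in Control, 6550, 5669 and 11696 in DSS, and 7795, 4568 and 5632 in Indirubin. Alb was high in 2 Control libraries and in DSS-3, and the groups overlapped, with a log2 fold change of -0.41 ± 0.61 for Indirubin against DSS and -0.82 ± 0.50 against Control. The value against DSS was -0.033 without DSS-3 and -0.74 without Indirubin-1. Azgp1, a zinc-binding glycoprotein with an MHC class I-like fold, had 212, 233 and 177 normalized CPM in Control, 140, 232 and 359 in DSS, and 112, 138 and 168 in Indirubin. Every Indirubin library of Azgp1 was below every Control library, with log2 fold changes of -0.80 ± 0.45 against DSS and -0.54 ± 0.36 against Control, the first of which was -0.42 without DSS-3 and -1.19 without DSS-1.

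Gc encodes the vitamin D-binding protein, with 859, 964 and 625 normalized CPM in Control, 630, 824 and 1401 in DSS, and 647, 618 and 748 in Indirubin. Ahsg encodes fetuin-A, an inhibitor of mineral deposition, with 835, 1090 and 571 normalized CPM in Control, 540, 911 and 1588 in DSS, and 640, 740 and 751 in Indirubin. Both were even in Indirubin, with DSS-3 on top and overlapping groups. Fetub, which encodes fetuin-B, an inhibitor of ovastacin-type proteases, had 152, 163 and 87.9 normalized CPM in Control, 69.9, 260 and 252 in DSS, and 74.4, 137 and 210 in Indirubin. The log2 fold changes of Gc, Ahsg and Fetub against DSS were -0.50 ± 0.48, -0.51 ± 0.51 and -0.47 ± 0.55. Leaving out DSS-3 moved these to -0.12, -0.039 and -0.24, and leaving out DSS-1 moved them to -0.83, -0.92 and -0.99.

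**Figure D3:**
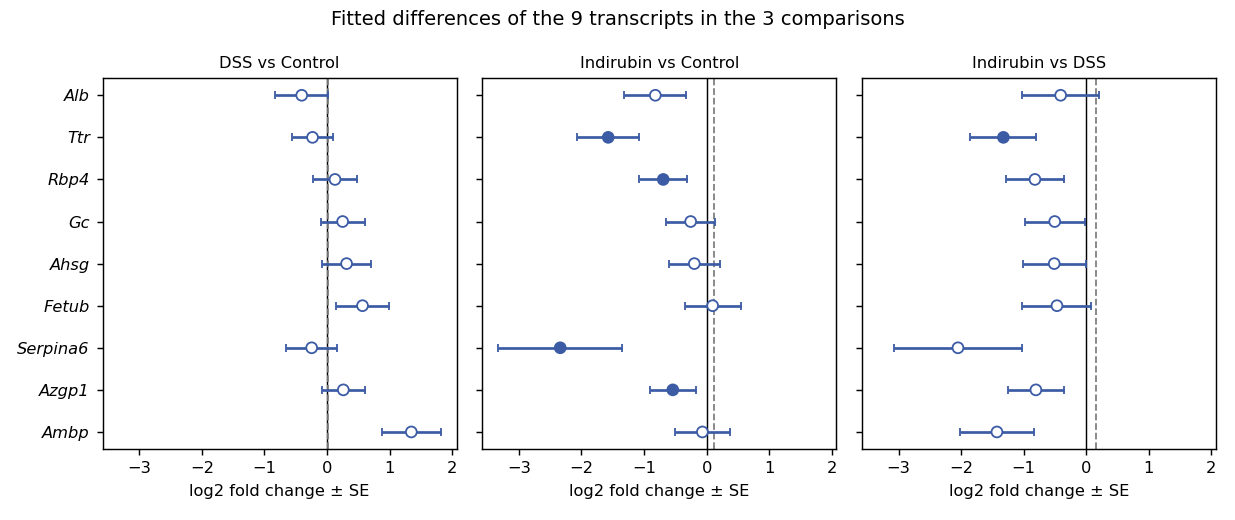
Fitted log2 fold change (x axis, points with ± SE) of the 9 transcripts in the 3 comparisons, with filled points where the libraries of both groups do not overlap, a solid line at 0 and a dashed line at the median of all genes tested. All 9 points are below 0 for Indirubin against DSS, Ambp at 1.35 is the farthest above 0 for DSS against Control, and Serpina6 and Ttr have the lowest values for Indirubin against Control.

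The second comparison set the DSS libraries against those labelled Control, whose colitis state the labels do not give. No member passed the test in DSS against Control (edgeR's quasi-likelihood test, 53 genes called or 0.708% of 7482), and DESeq2's Wald test called 143 genes and no member. Of the members 6 were above 0 and 3 below, against 50.6% of all genes above 0, and their median was 0.25 against 0.01 over all genes. No member had groups that did not overlap, where 8.54% of genes had every DSS library below and 7.1% every DSS library above Control. The 2 carriers most often used as negative acute-phase markers, Alb at -0.40 ± 0.42 and Ttr at -0.23 ± 0.34, and Serpina6 at -0.24 ± 0.41, were the 3 below 0. Rbp4 at 0.13 ± 0.35, Gc at 0.25 ± 0.35, Azgp1 at 0.26 ± 0.34, Ahsg at 0.31 ± 0.39 and Fetub at 0.57 ± 0.43 were above it. Without DSS-3, Rbp4, Gc, Ahsg and Azgp1 had values below 0 and the members' median was -0.12. Ambp was the 1 member with an unadjusted p under 0.05, and it was higher, as 3.48% of all genes tested were with such a p. Its log2 fold change was 1.35 ± 0.47 with an adjusted p of 0.403 in edgeR's quasi-likelihood test, and 0.64 without DSS-3, while with no filter on low counts the adjusted p was 0.0317. That unfiltered fit called 125 of 18484 genes.

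The same libraries were read for the positive acute-phase genes. All 24 of the 25 that were tested had a value above 0 in DSS against Control, 16 had groups that did not overlap, and 9 rose at an adjusted p under 0.05 in edgeR's quasi-likelihood test, with a median log2 fold change of 1.87. The serum amyloid genes Saa1 and Saa2 rose by 8.25 ± 0.93 and 8.80 ± 1.13 on the log2 scale, Orm2, an orosomucoid, by 7.74 ± 0.97, and Apcs, serum amyloid P, by 4.06 ± 0.51. Of 13 other secreted carriers and negative acute-phase genes, 7 were above and 6 below 0, and 1 was called, Hpx (hemopexin, the carrier of heme), which rose by 2.65 ± 0.51 with an adjusted p of 0.0321 in that test. Serpina7, the thyroxine-binding globulin, had 1.56 to 4.38 normalized CPM in Control and 6.99 to 17.1 in DSS, with an adjusted p of 0.153. Kng1, Kng2 and Hrg, relatives of the fetuins, were all above 0 at 0.76, 0.96 and 0.78 with none called.

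The third comparison set Indirubin against Control, using the same Indirubin and Control libraries as above. No member was called in edgeR's quasi-likelihood test, in which 19 genes or 0.236% of 8059 were, while DESeq2's Wald test called 316 genes and 1 member, Ttr at -1.58 with an adjusted p of 0.0251. Of the members 8 were below 0, against 44.5% of genes, with a median of -0.54 against 0.13 over all genes. Ttr and Serpina6 had an unadjusted p under 0.05, and both were lower, as 6.38% of all genes tested were with such a p. Ttr, Serpina6, Rbp4 and Azgp1, 4 of the 9, had every Indirubin library below every Control library, as had 9.32% of genes. The remaining values were -0.25 ± 0.39 for Gc, -0.20 ± 0.41 for Ahsg, -0.07 ± 0.43 for Ambp and 0.10 ± 0.45 for Fetub, and the first 3 turned above 0 when libraries were scaled by total counts alone, as did Alb, Rbp4 and Azgp1, a scaling that moved the median of all genes to 1.11.

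Ratios of counts within a library do not change with scaling. The steadiest of all 36 pairs of members was Gc and Ahsg, with 0.835 to 1.17 Gc counts per Ahsg count over the 9 libraries and an SD of 0.16 on the log2 scale. Gc and Azgp1 came next with an SD of 0.21. Gc was therefore used as a reference beside Alb, a choice made after these ratios were seen, and the counts below differ between the 2 references.

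Against Gc, 3 of the other 8 members had every DSS library below every Control library, against 9.53% of genes, and 1 had every DSS library above, against 3.57%. Against Alb none of the 8 was below (3.07% of genes) and 3 were above (Rbp4, Gc and Ambp, where 12.5% of genes were), so Ambp was the 1 member placed above Control by both references and none was placed below by both. Alb had 13.9, 13.3 and 12.02 counts per Gc count in Control, 10.4, 6.88 and 8.35 in DSS, and 12.1, 7.39 and 7.53 in Indirubin. Indirubin-1 was at the lower edge of Control and the other 2 Indirubin libraries were in the DSS range. Ttr had 0.952, 1.15 and 0.989 counts per Gc count in Control, 0.888, 0.734 and 0.679 in DSS, and 0.743, 0.265 and 0.266 in Indirubin. All 6 DSS and Indirubin libraries were below Control, and Indirubin-1 was inside the DSS range. Serpina6 had 0.0218 to 0.0314 counts per Gc count in Control, 0.0169 to 0.0215 in DSS, and 0.0210, 0.000928 and 0.000462 in Indirubin. Ambp had 0.682, 0.526 and 0.456 counts per Gc count in Control, 0.761, 1.07 and 1.51 in DSS, and 0.497, 0.595 and 0.802 in Indirubin. Every DSS library was above every Control library in this ratio, and the Indirubin libraries overlapped both groups.

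Against Gc, 4 of the 8 members (Ttr, Rbp4, Serpina6 and Azgp1) had every Indirubin library below every Control library, where 5.82% of genes did. Against Alb, 2 of 8 did (Ttr and Serpina6, with 2.53% of genes), and Rbp4 and Azgp1 overlapped. Between Indirubin and DSS, none of the 8 members was placed wholly below by Gc (1.82% of genes), where Ttr overlapped through Indirubin-1, and 1 was by Alb, Ttr (2.39% of genes). Ttr had 61.6, 35.9 and 35.4 counts per 1000 Alb counts in Indirubin, 85.4, 107 and 81.3 in DSS, and 68.3, 86.6 and 82.3 in Control.

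**Figure D4:**
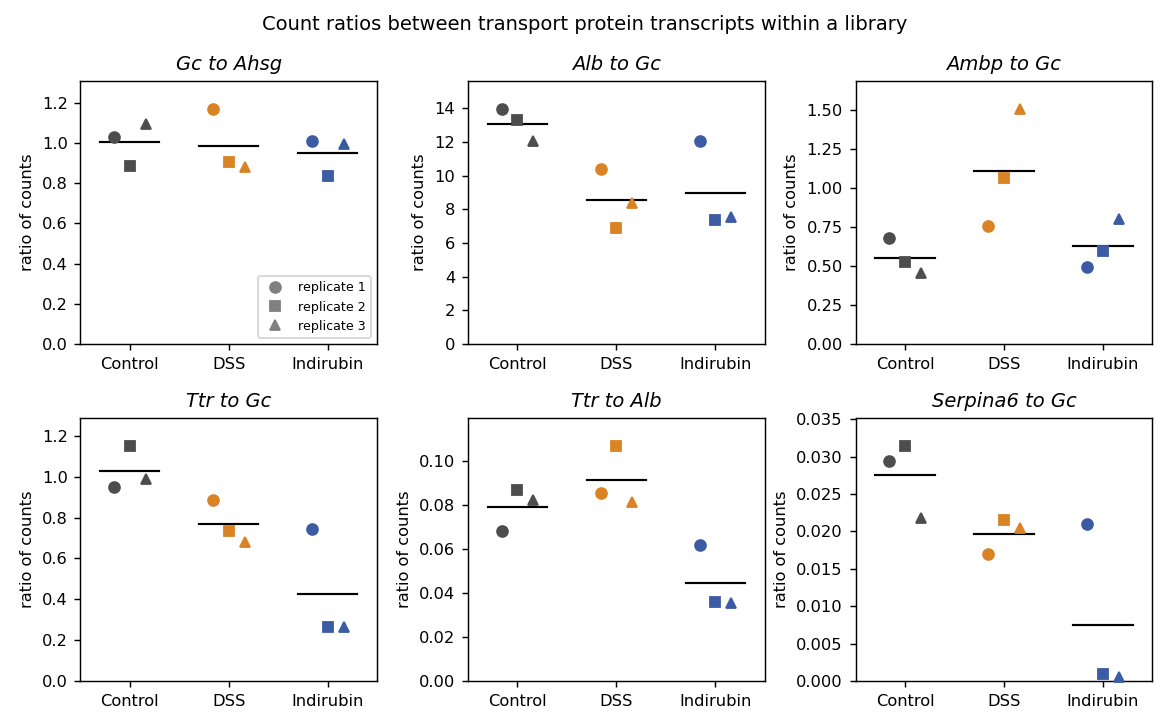
Ratio of the counts of 2 transcripts within each library (y axis, linear from 0), grouped as Control, DSS and Indirubin on the x axis, with symbols for the replicate number and a bar at the group mean. Gc to Ahsg stays between 0.835 and 1.17, Alb to Gc and Ttr to Gc are lower in DSS than in Control, Ambp to Gc is higher in DSS than in Control, and Indirubin-1 differs from the other 2 Indirubin libraries in Alb to Gc, Ttr to Gc and Serpina6 to Gc.

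Among the 798 other nuclear genes that reached 50 counts in each library, those whose ratio to Alb varied least over the 9 libraries were Gm2a, H2-K1, Cyb5r3, Lamp2 and Rdh7, with SDs of 0.21 to 0.26 on the log2 scale. The nearest members were Rbp4, at rank 33 with an SD of 0.33, and Gc, at rank 82 with 0.40. Ambp was at rank 623 with 0.86. These are descriptions over libraries that share depth and condition.

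Genes that work with these carriers, or belong to their families, were read from fixed lists. Afm, the afamin gene beside Alb in its family, had 45.1, 40.3 and 27.8 normalized CPM in Control, 30.8, 31.9 and 46.9 in DSS, and 21.1, 2.46 and 5.10 in Indirubin. As with Ttr, the Indirubin libraries were all below both other groups and Indirubin-1 was the highest of them, with log2 fold changes of -1.96 ± 0.66 against DSS (adjusted p of 0.492) and -2.001 ± 0.64 against Control (adjusted p of 0.184) in edgeR's quasi-likelihood test. Of the 13 other carriers, 11 were below 0 in Indirubin against DSS and 10 in Indirubin against Control, with none called. Serpina7 at -2.15 ± 0.69, Apom, the apolipoprotein that carries sphingosine-1-phosphate, at -1.41 ± 0.46, and the paraoxonases Pon1 at -1.38 ± 0.50 and Pon3 at -1.18 ± 0.49 had the smallest p values against DSS, with adjusted p from 0.466 to 0.604 in that test. Of 12 tested partners, which include the Itih heavy chains and genes that handle retinol, thyroid hormone, vitamin D, glucocorticoids or albumin recycling, 11 were below 0 against DSS and 9 against Control, and none was called. Hsd11b1, which regenerates active glucocorticoid in liver, had 61.3 to 96.1 normalized CPM in DSS, 69.7 to 121 in Control, and 72.9, 33.0 and 20.7 in Indirubin.

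Of the hepatocyte transcription factors, 13 of 16 were tested in Indirubin against DSS, 11 were above 0 and none was called. Cebpb, a C/EBP factor of the acute-phase response, had 8.17, 10.04 and 10.5 normalized CPM in Control, 10.3, 1.06 and 10.1 in DSS, and 17.3, 20.6 and 21.3 in Indirubin. All 3 Indirubin libraries, Indirubin-1 included, were above both other groups, with a log2 fold change of 1.45 ± 0.62 against DSS (adjusted p of 0.618 in edgeR's quasi-likelihood test). The low DSS-2 value of 1.06 rests on few counts, as 1 normalized CPM stood for 5.64 counts there, and its part was not tested. Against Control the log2 fold change was 1.07 ± 0.36 (adjusted p of 0.195 in that test). Of 12 hepatocyte markers, 7 were below 0 in Indirubin against DSS and 8 in Indirubin against Control, with medians of -0.32 and -0.65 and none called.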

How the data were processed

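Liver RNA of 3 Control, 3 DSS and 3 Indirubin mice was sequenced on a DNBSEQ platform, one library per mouse, and the labels do not say whether mice shared cages or extraction days. The deposited values are raw counts per gene, made by the authors from reads aligned to GRCm39 (submitters' processing notes); aligner, counting program, strand setting and annotation release are not given in the sources used here. FPKM columns, the authors' own fold changes and p-values, and 3 gene lists without library values were not used. The table's gene length served for levels per kilobase, and the p-values measure only the spread between these mice.

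Genes were filtered with edgeR's filterByExpr (at least 10 counts, 15 in total), scaled by TMM and tested with edgeR 4.0.16's quasi-likelihood test on the 2 groups compared, with Benjamini-Hochberg adjustment over all genes tested and a threshold of 0.05. The script was tested on simulated data. With 3 against 3 libraries an exact permutation test cannot go below 0.1, so none was used. DESeq2 1.42.0, other filters and scalings, a replicate block and leaving out each library served as alternatives. Same-numbered libraries correlated by -0.04 to 0.04 in their deviations from group means over 7981 genes, so numbers were not taken as pairs, and replicates differed by more than sampling noise (chi-square per gene of 12.6 or more). Promoter windows came from RefSeq (GRCm38.p6). Scripts drew the plots.

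Named were all 9 members, of each other list at most the 4 genes of smallest p per comparison or those touching a member, and the 5 genes nearest to Alb. Cxcr2 falls outside this rule and was named after its counts were seen. The members and lists were chosen with earlier results of these data known, and ratio references after the ratios were seen. Lists not named in the results gave, of those tested in Indirubin against DSS, 10 macrophage markers with 7 above 0, 8 sinusoidal endothelial with 8, 8 stellate with 7, 2 cholangiocyte with 1, 2 lymphocyte with 0 and 1 adipocyte with 1, none called.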

Additional observations from a re-analysis of the deposited data

How the results depend on the processing

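The median log2 fold change of the members in Indirubin against DSS stayed below 0 under all 14 alternatives, from -1.17 (without DSS-1) to -0.39 (without DSS-3), and was -0.53 with library size alone. In DSS against Control it was 0.99 with library size alone, where the median of all genes was 0.70, and leaving out one library gave -0.12 (without DSS-3) to 0.46. In Indirubin against Control it was 0.48 with library size alone (median of all genes 1.11), -0.31 when each library had to reach 10 counts, where 8 members were tested, and -0.67 to -0.49 when one library was left out. The cause was not tested.

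The number of members called, 0 in each comparison, was 1 in each without a filter on low counts: Serpina6 at -2.17 against DSS and -2.34 against Control, and Ambp at 1.37 in DSS against Control. Without that filter 156 of 23034 genes were called in Indirubin against DSS and 379 of 22767 in Indirubin against Control. In DSS against Control 125 of 18484 were. DESeq2's Wald test called 1 against Control, Ttr at -1.58. Leaving out one library gave 0 to 1 in Indirubin against DSS, 0 in DSS against Control and 0 to 2 in Indirubin against Control, the calls coming without Indirubin-1. Without Indirubin-1, 134 of 10817 genes were called in Indirubin against DSS and 465 of 9721 in Indirubin against Control. The replicate block changed no member's call (0 in each comparison) and gave 3, 30 and 49 genes called in all for Indirubin against DSS, DSS against Control and Indirubin against Control, where the unblocked fits gave 0, 53 and 19. Under the block Serpina6 was -3.71 against DSS and -3.75 against Control, with adjusted p of 0.426 and 0.0876 in edgeR's quasi-likelihood test. Every Indirubin library correlated best with the DSS library of its own number, but only by 0.035, 0.0065 and 0.028. Against Control, Indirubin-2 correlated best with number 3. Correlations this near 0 do not show whether the numbers mark pairs. Over all alternatives the genes called in all ranged from 0 to 156, 11 to 143 and 1 to 465 in the same order of comparisons.

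Single members changed sign as follows. With library size alone, DSS against Control gave Alb 0.35, Ttr 0.49 and Serpina6 0.48, and Indirubin against Control gave Alb 0.047, Rbp4 0.24, Gc 0.72, Ahsg 0.79, Azgp1 0.48 and Ambp 0.94. With at least 10 counts in every library, Ambp was 0.022 against Control and Serpina6 could not be tested in the Indirubin comparisons. Leaving out one library at a time, the values in DSS against Control ran from -0.26 to 0.37 for Rbp4, -0.091 to 0.46 for Gc, -0.12 to 0.60 for Ahsg and -0.081 to 0.53 for Azgp1, each lowest without DSS-3 and highest without DSS-1, and from -0.63 (without DSS-3) to 0.029 (without DSS-1) for Serpina6. In Indirubin against Control they ran from -0.39 (without Indirubin-3) to 0.11 (without Control-1) for Ambp, -0.44 (without Control-3) to 0.0059 (without Control-2) for Ahsg and -0.31 (without Indirubin-3) to 0.26 (without Indirubin-1) for Fetub. Serpina6 rests on 56 to 314 counts in Control and DSS and on 74, 7 and 4 in Indirubin.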
